A study of Arabidopsis thaliana with 24 samples.

Results

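The genes described here are 47 genes of Arabidopsis thaliana that make, destroy, perceive and answer abscisic acid (ABA), out of 26405 genes listed in any library. They were chosen by gene identifier from their known place in the pathway, by a rule that holds no measured value. They comprise 4 genes of ABA synthesis, 4 of ABA catabolism, 9 PYR/PYL receptors, 8 clade A protein phosphatases of type 2C (PP2Cs), 3 SnRK2 kinases, 4 bZIP transcription factors (ABF2, ABF3, ABF4 and ABI5), 10 stress response genes and 5 transcription factor genes of the response. All 47 were listed in at least 1 library and 42 in every library.

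ABA is a plant hormone whose level rises when roots or leaves lose water or meet salt. In the absence of the hormone the PP2Cs hold the SnRK2 kinases inactive. A receptor that has bound ABA binds and blocks a PP2C, the freed kinases phosphorylate the ABF factors, and these switch on genes whose promoters carry the ABA-responsive element with its ACGTG core. Several PP2C and catabolism genes are themselves induced by ABA, which makes them brakes on the pathway, while dehydrins and other hydrophilic proteins are its best known products in stressed tissue.

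The libraries were made from roots and shoots of wild-type Col-0 diploids and of neo-tetraploids, which carry the doubled genome of the same accession. Both were grown for 2 weeks on plates with 1% agar and 1% sucrose, either without added salt (control) or with 35 mM NaCl. This gives 8 groups of 3 libraries, 24 in all. The study asked what raises the potassium content of neo-tetraploid leaves, and these libraries compared gene expression between the ploidies with and without salt. No mutant, transgene or hormone treatment is involved in any of the 8 groups. Plants were pooled within a replicate and all came from the same experiment, so p-values measure the spread between these samples, which holds no repeat of the experiment. ABA itself was not measured here. In RNA from whole organs, fewer cells of a type and less RNA per cell cannot be told apart.

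Levels are given as FPKM, reads scaled to the length of the transcript and to the number of mapped reads, and changes as log2 fold changes ± standard error from edgeR's quasi-likelihood test on the counts. A gene was called where the p-value adjusted over all genes tested was under 0.05 and the change at least 2-fold. Library totals lay between 11202503 and 11909554 expected counts. With genes tested at 10 or more counts in at least 3 libraries, 42 members were tested in roots, 46 in shoots and 47 across organs. CYP707A2, CYP707A4, PYL2, COR15A and ANAC019 fell below this limit in roots, and HAI3 in shoots. ABA2, AAO3, PYL7, ABI1, SnRK2.3, ABF3, ABF4 and RAB18 overlap genes on the opposite strand, and whether strand was used in counting is not given in the sources used here, so their levels are less certain. The organ labels held in the markers. The summed FPKM of 4 leaf genes was between 34000 and 42300 in shoots and between 67.8 and 260 in roots, that of 6 root genes was between 734 and 2150 in roots and between 4.91 and 10.8 in shoots, and that of 4 guard cell genes was between 64.0 and 164 in shoots and between 0.16 and 0.63 in roots.

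Some libraries stood apart in ways that touch the results below. The neo-tetraploid NaCl shoot library 2 was the highest of the 12 shoot libraries for 30 of 46 members, and the diploid NaCl shoot library 2 was the highest of its group for 30. The diploid control root library 1 held the seed storage gene CRA1 at 31.9 FPKM, against 2.28 and 0 in the other libraries of its group, and the neo-tetraploid NaCl root library 2 held it at 19.7 FPKM. In shoots CRA1 reached 21.5 FPKM in neo-tetraploid NaCl library 1 and 17.9 FPKM in neo-tetraploid control library 1. It was at 10.7 FPKM in diploid control shoot library 1 and 10.1 FPKM in diploid NaCl shoot library 3. In every group the third library was the lowest for the morning clock genes CCA1 and LHY and the highest for the evening gene TOC1. In control shoots CCA1 was at 27.4, 23.9 and 1.42 FPKM in the diploids and at 21.1, 12 and 1.23 FPKM in the neo-tetraploids, in the order of the library numbers.

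Root and shoot differed in which members they used. Across organs 28 of 47 members were called, 9 higher in roots and 19 higher in shoots, where 22.1% of all 21338 genes tested were called higher in roots and 21.9% lower. The median member differed by −0.55 (log2, root minus shoot) and the median gene by 0.04. Scaling to library totals in place of the trimmed mean of M-values (TMM) shifted the median of all genes by 0.55 towards roots. On that scale 24 members were called, 11 higher and 13 lower, and 66.9% of all calls were higher in roots. ABI5, PP2CA, ANAC055, ATHB12, RD26 and CYP707A3 then lost their call, and 9 members that were not called changed sign. FPKM are also scaled without TMM. Organ ratios of the FPKM below therefore lie about 0.55 (log2) further towards roots than the changes printed beside them.

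The first and rate-limiting steps of ABA synthesis were more strongly expressed in shoots. ABA1 (AT5G67030), the zeaxanthin epoxidase, was at 16.2 to 44.8 FPKM in roots, with a median of 30.9, and at 39.8 to 243 FPKM in shoots, with a median of 149, a root minus shoot difference of −2.75 ± 0.29 (adjusted p = 2.56e-08). NCED3 (AT3G14440), the epoxycarotenoid dioxygenase that limits stress-induced synthesis, was at 2.80 to 12.4 FPKM in roots and at 11.1 to 96.3 FPKM in shoots (−3.15 ± 0.27, adjusted p = 8.62e-10). For both genes the ranges overlapped between the organs. ABA2 and AAO3, which carry out the last conversions to ABA, were at medians of 19.4 and 9.41 FPKM in roots and 10 and 6.24 FPKM in shoots. Neither was called.

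The 4 ABA hydroxylases of the CYP707A family, which start the breakdown of the hormone, were all called between organs but not in the same direction. CYP707A1 (AT4G19230) was at 14.5 to 34.7 FPKM in roots and at 1.49 to 5.51 FPKM in shoots, so that the organs did not overlap (2.24 ± 0.13, adjusted p = 9.87e-13). CYP707A3, the family member with the highest mean level, was at 5.42 to 22.8 FPKM in roots and at 6.18 to 62.4 FPKM in shoots (−1.32 ± 0.29). CYP707A4 lay between 0.77 and 3.07 FPKM in shoots and was listed at 0 in 8 of the 12 root libraries. Its summed counts were 427 in shoots and 5 in roots, a ratio of 85.2 scaled by library totals, with an exact 95% interval for counting error of 36.2 to 264. The corresponding counts of CYP707A2 were 428 and 33. In roots CYP707A1 and CYP707A3 were the main transcripts of the family, and shoots held all 4.

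Of the 9 receptors 5 were called higher in roots, namely PYR1, PYL1, PYL4, PYL5 and PYL6, and PYL7 was called higher in shoots. PYR1 (AT4G17870), the most highly expressed receptor gene, ranged from 88.2 to 152 FPKM in roots and from 15.9 to 45.8 FPKM in shoots, without overlap (1.17 ± 0.12, adjusted p = 1.47e-08). PYL7 ranged from 3.87 to 10.8 FPKM in roots and from 18.3 to 43.2 FPKM in shoots, again without overlap (−2.85 ± 0.15, adjusted p = 1.54e-13). PYL7 shares 43.8% of its stretches of 50 bases, the length of a read, with an overlapping gene on the other strand. PYL2, PYL8 and PYL9 differed by less than 2-fold between organs.

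Of the PP2C, SnRK2 and bZIP genes 2 of 8, 0 of 3 and 1 of 4 were called between organs. The 3 SnRK2 kinases that act in ABA signalling differed little, by −0.67 ± 0.07 for SnRK2.2, −0.62 ± 0.12 for SnRK2.3 and −0.61 ± 0.07 for SnRK2.6, all past the adjusted p but under 2-fold. SnRK2.2 (AT3G50500), the most abundant, lay at 77.2 to 90 FPKM in roots and at 67.5 to 113 FPKM in shoots. Among the PP2Cs only HAI2 and PP2CA were called, both higher in shoots, and among the ABFs only ABI5. ABI1 (AT4G26080), the PP2C with the highest mean, ranged from 50.6 to 95.5 FPKM in roots and from 26.3 to 214 FPKM in shoots (−0.50 ± 0.24, adjusted p = 0.0631). ABF3 (AT4G34000), the most abundant of the bZIP genes, ranged from 51.4 to 92.1 FPKM in roots and from 15.9 to 106 FPKM in shoots (0.31 ± 0.19). ABI5, a bZIP factor best known from seeds, ranged from 1.32 to 4.70 FPKM in roots and from 1.36 to 10.7 FPKM in shoots (−1.08 ± 0.24, adjusted p = 0.000282).

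A response gene showed the greatest organ difference of any member. COR15A (AT2G42540), which encodes a chloroplast protein that protects membranes, was at 0.12 to 1.28 FPKM in roots and at 139 to 1520 FPKM in shoots. Its summed counts were 51974 in shoots and 59 in roots, a ratio of 878 scaled by library totals (exact 95% interval for counting error 681 to 1150). RD22 was at 2.3 to 24.1 FPKM in roots and at 150 to 623 FPKM in shoots (−5.92 ± 0.18, adjusted p = 2.64e-17). The opposite held for the dehydrin LTI30, at 696 to 1190 FPKM in roots and 27.2 to 143 FPKM in shoots (3.63 ± 0.21, adjusted p = 1.45e-12), and for KIN1 (2.52 ± 0.25), whereas its neighbour KIN2 was higher in shoots (−2.23 ± 0.23). COR47, the dehydrin gene with the highest mean of all members, was at 1300 to 2170 FPKM in roots and 380 to 1570 FPKM in shoots (0.57 ± 0.17), and became a call on the scale of library totals.

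All 5 transcription factor genes of the response were called. ANAC019 (AT1G52890), a NAC factor, was listed at 0 in 6 root libraries and reached 0.34 FPKM in the others, while it lay between 0.69 and 127 FPKM in shoots. Its summed counts were 15 in roots and 3091 in shoots. ATHB7 (AT2G46680), a homeodomain-leucine zipper factor and the most abundant of the 5, was at 90.9 to 229 FPKM in roots and at 15.0 to 114 FPKM in shoots (1.27 ± 0.21, adjusted p = 1.45e-05). RD26, ANAC055 and ATHB12 were higher in shoots by less than 2.4-fold, with overlapping ranges.

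**Figure D1:**
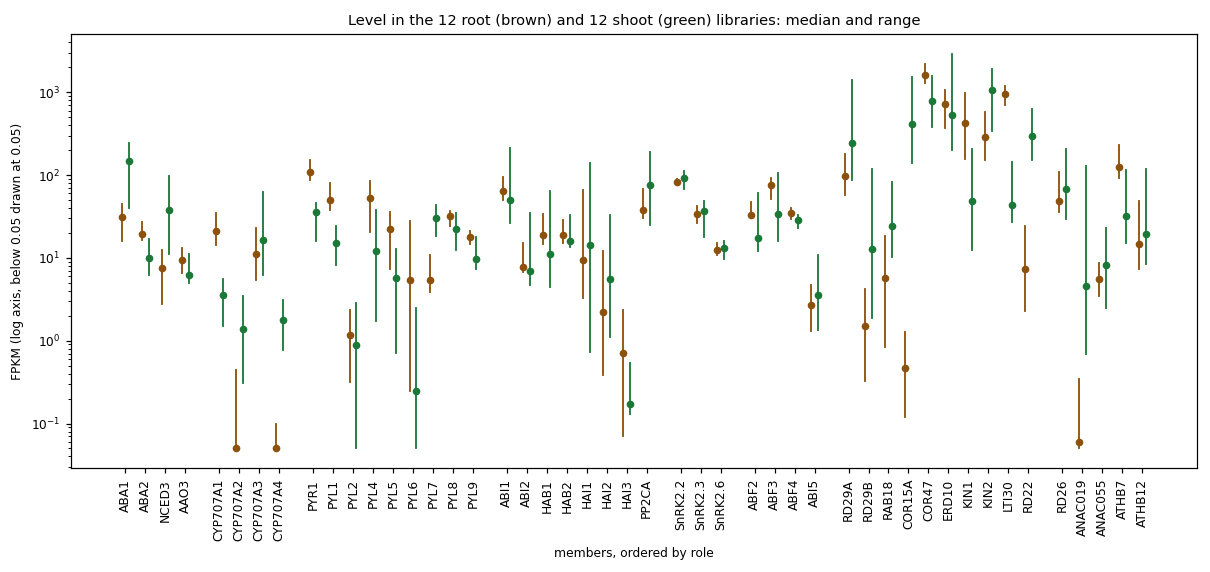
FPKM (log axis) of each of the 47 members in the 12 root libraries (brown) and the 12 shoot libraries (green), ordered by role from synthesis at the left to transcription factors at the right; the point is the median and the line the range over libraries. COR15A, ANAC019, CYP707A4 and RD22 stand far higher in shoots and LTI30 and CYP707A1 in roots, while the 3 SnRK2 genes nearly coincide.

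Growth on NaCl raised phosphatase and response genes in roots and lowered receptor genes. Over both ploidies, 11 of 42 members tested were called, 8 higher and 3 lower, where 0.963% of the 20239 genes tested were called higher and 2% lower. By adjusted p alone, 18 members were higher and 5 lower, where 7.4% and 11.6% of all genes passed. The median member changed by 0.26 and the median gene by 0.01. The 3 called lower were all receptors, and the 8 called higher were 3 PP2Cs, 4 response genes and 1 transcription factor gene. No synthesis, catabolism, SnRK2 or ABF gene was called.

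PYL6 (AT2G40330) showed the greatest change of any member. In control roots it was at 21.3, 28.2 and 22.3 FPKM in the diploids and at 27.0, 10.1 and 8.55 FPKM in the neo-tetraploids. With NaCl it was at 2.14, 0.81 and 0.41 FPKM in the diploids and at 2.32, 0.25 and 0.65 FPKM in the neo-tetraploids. Control and NaCl libraries did not overlap, and the change was −4.18 ± 0.43, 18.1-fold lower (adjusted p = 6.02e-05).

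PYL4 (AT2G38310) and PYL5 (AT5G05440), close relatives of PYL6, also fell. In diploid roots PYL4 went from 54.3, 84.2 and 67.8 FPKM in the control to 34.2, 20.4 and 21.3 FPKM with NaCl, and in neo-tetraploid roots from 66.3, 69.1 and 69.8 FPKM to 52.4, 28.0 and 23.9 FPKM. All 6 NaCl libraries were below all 6 control libraries (−1.28 ± 0.19, adjusted p = 0.00068). PYL5 was at 20.8, 34.8 and 23.4 FPKM in diploid controls, 13.4, 9.29 and 7.40 FPKM in diploids on NaCl, 35.4, 25.6 and 23.8 FPKM in neo-tetraploid controls and 23.8, 15.7 and 14.3 FPKM in neo-tetraploids on NaCl. Here the highest NaCl library met the control range (−1.10 ± 0.19, adjusted p = 0.00163), and the change was −0.95 without diploid control library 2 and −0.99 without neo-tetraploid control library 1, just under 2-fold. PYR1 and PYL1 fell by 0.44 and 0.56 on the log2 scale, past the adjusted p but under 2-fold, and PYL7 rose by 0.75 ± 0.18. PYL8 (−0.18 ± 0.07) and PYL9 (−0.09 ± 0.09) did not pass.

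The PP2Cs moved the other way. HAI1 (AT5G59220), a highly ABA-induced phosphatase gene, was at 3.64, 3.32 and 4.82 FPKM in diploid control roots and at 24.4, 65.8 and 56.3 FPKM with NaCl. In the neo-tetraploids it was at 4.19, 7.84 and 6.67 FPKM in the control and at 11.2, 40.6 and 59.5 FPKM with NaCl. No NaCl library overlapped a control library, and the first library was the lowest of each NaCl group (3.04 ± 0.37, 8.24-fold, adjusted p = 0.00017). HAI2 (AT1G07430) was at 1.52, 1.70 and 0.38 FPKM in diploid controls, 4.78, 10.1 and 12 FPKM in diploids with NaCl, 1.2, 1.01 and 0.96 FPKM in neo-tetraploid controls and 2.70, 4.94 and 5.94 FPKM in neo-tetraploids with NaCl, again without overlap (2.42 ± 0.32, adjusted p = 0.000315). HAI3 (AT2G29380), the third phosphatase of this subgroup, was low throughout, at 0.20, 0.13 and 0.07 FPKM and 0.27, 0.89 and 0.55 FPKM in the diploid and neo-tetraploid controls and 0.89, 1.34 and 2.38 FPKM and 0.48, 1.67 and 2.3 FPKM with NaCl (2.34 ± 0.47, adjusted p = 0.00425). Its groups overlapped in the neo-tetraploids. ABI2, HAB1 and HAB2 rose by 0.60, 0.52 and 0.34, past the adjusted p but under 2-fold, and ABI1 (0.21 ± 0.14) and PP2CA (0.50 ± 0.18) did not pass.

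Among the response genes called, the small hydrophilic protein gene KIN1 (AT5G15960) and the BURP-domain gene RD22 (AT5G25610) had the smallest standard errors. KIN1 was at 356, 275 and 249 FPKM in diploid controls and at 610, 968 and 488 FPKM with NaCl, and in the neo-tetraploids at 234, 198 and 157 FPKM in controls and at 701, 689 and 523 FPKM with NaCl. All NaCl libraries exceeded all controls (1.39 ± 0.16, adjusted p = 0.000111). RD22 was at 5.58, 6.18 and 7.03 FPKM in diploid controls and 16.1, 24.1 and 13.9 FPKM with NaCl, and at 2.3, 3.26 and 3.89 FPKM in neo-tetraploid controls and 7.49, 10.1 and 8.22 FPKM with NaCl, also without overlap (1.42 ± 0.15, adjusted p = 8.24e-05). KIN1 lies next to KIN2, with which it shares only 1.28% of its stretches of 50 bases, and KIN2 rose by 0.64 ± 0.19, under 2-fold.

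RAB18 (AT5G66400), a dehydrin gene much used as an ABA marker, and RD29B (AT5G52300), whose promoter is a classic model of ABA induction, also rose, with more spread. RAB18 was at 9.39, 3.96 and 1.76 FPKM in diploid controls, 9.46, 18.6 and 11.1 FPKM in diploids on NaCl, 0.83, 1.66 and 2.18 FPKM in neo-tetraploid controls and 3.11, 7.47 and 7.87 FPKM in neo-tetraploids on NaCl (1.61 ± 0.37, adjusted p = 0.00968). RD29B was at 2.54, 0.60 and 0.33 FPKM, 1.91, 4.22 and 3.53 FPKM, 0.65, 0.90 and 0.86 FPKM and 1.11, 3.86 and 4.07 FPKM in the same groups (1.62 ± 0.43, adjusted p = 0.0184). For RD29B the overlap of control and NaCl roots came from diploid control library 1, which held the most CRA1 of the root libraries. The part of seed transcripts was not tested. For RAB18 control and NaCl did not overlap within either ploidy. RD29A and KIN2 rose under 2-fold, and COR47, ERD10 and LTI30 did not pass, with changes between −0.18 and 0.22. The most abundant dehydrin transcripts of the root thus differed little between control and salt.

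ATHB12 (AT3G61890), a homeodomain-leucine zipper factor that acts on PP2C and receptor genes, was at 13.2, 10 and 7.29 FPKM in diploid controls, 15.6, 38.6 and 48.7 FPKM in diploids on NaCl, 11.8, 20.7 and 13.5 FPKM in neo-tetraploid controls and 14, 24.3 and 46.9 FPKM in neo-tetraploids on NaCl. Its change was 1.26 ± 0.32 (adjusted p = 0.0146), with overlap in the neo-tetraploids, and 0.97 without neo-tetraploid NaCl library 3. ATHB7 rose without overlap from 90.9 to 118 FPKM in the 6 controls to 132 to 229 FPKM with NaCl, by 0.76 ± 0.12. RD26 (0.61 ± 0.25) and ANAC055 (0.01 ± 0.20) did not pass.

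Synthesis genes moved little in roots. ABA2 and AAO3 rose by 0.28 ± 0.08 and 0.45 ± 0.08, past the adjusted p. NCED3 was at 2.80, 5.50 and 5.41 FPKM in diploid controls, 4.15, 7.57 and 10.4 FPKM in diploids on NaCl, 7.41, 8.77 and 11.5 FPKM in neo-tetraploid controls and 5.85, 7.65 and 12.4 FPKM in neo-tetraploids on NaCl, with overlap (0.23 ± 0.25, adjusted p = 0.564). CYP707A1 rose by 0.47 ± 0.14 (adjusted p = 0.0365). The SnRK2 genes lay between −0.06 and 0.08 and the 4 bZIP genes between −0.10 and 0.43, none past the adjusted p.

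Taken separately, 9 members were called with NaCl in diploid roots, where 2.82% of all genes were called, and 6 in neo-tetraploid roots, where 2.38% were. PYL4, PYL6, HAI1, HAI2, KIN1 and RD22 were called in both, which is 6 of 9 and 6 of 6, and PYL5, HAI3 and ATHB12 passed in diploids alone. This last difference was tested by the interaction of ploidy and NaCl, in which 0 of 42 members were called by edgeR and 0% of all genes, with 1 member, SnRK2.3, and 1259 of 20239 genes at an unadjusted p under 0.05. HAI3 had an interaction of −2.05 ± 0.99 and PYL5 of 0.76 ± 0.37, with adjusted p = 0.802 for each. The count for neo-tetraploids was 3 without neo-tetraploid control library 1 or without neo-tetraploid NaCl library 2, in each case through the loss of PYL4, HAI1 and HAI2. HAI2 lost its call in neo-tetraploids without any of 5 of their 6 root libraries, and PYL4 without any of those 5 or diploid control library 3 and on the scale of library totals (−0.98). In diploids HAI3 lost its call without control library 2, KIN1 without NaCl library 2, and ATHB12 without any of control libraries 2 and 3 or NaCl libraries 2 and 3.

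Other transcripts moved beside these in roots. Of the 6 clock genes LHY was called lower with NaCl (−1.45 ± 0.41, adjusted p = 0.0258), and the summed level of the list was 159 to 193 FPKM in controls and 113 to 159 FPKM with NaCl. Of 4 leaf genes 2 rose past the adjusted p, RBCS1A and CAB1, with a summed level of 67.8 to 192 FPKM in controls and 134 to 260 FPKM with NaCl, and of 6 root genes 3 fell, CASP2, ESB1 and COBL9, with a summed level of 918 to 1660 FPKM and 734 to 2150 FPKM. Their part in the results was not tested. The guard cell genes were at or near 0, and the seed genes were at 0 in all neo-tetraploid controls.

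**Figure D2:**
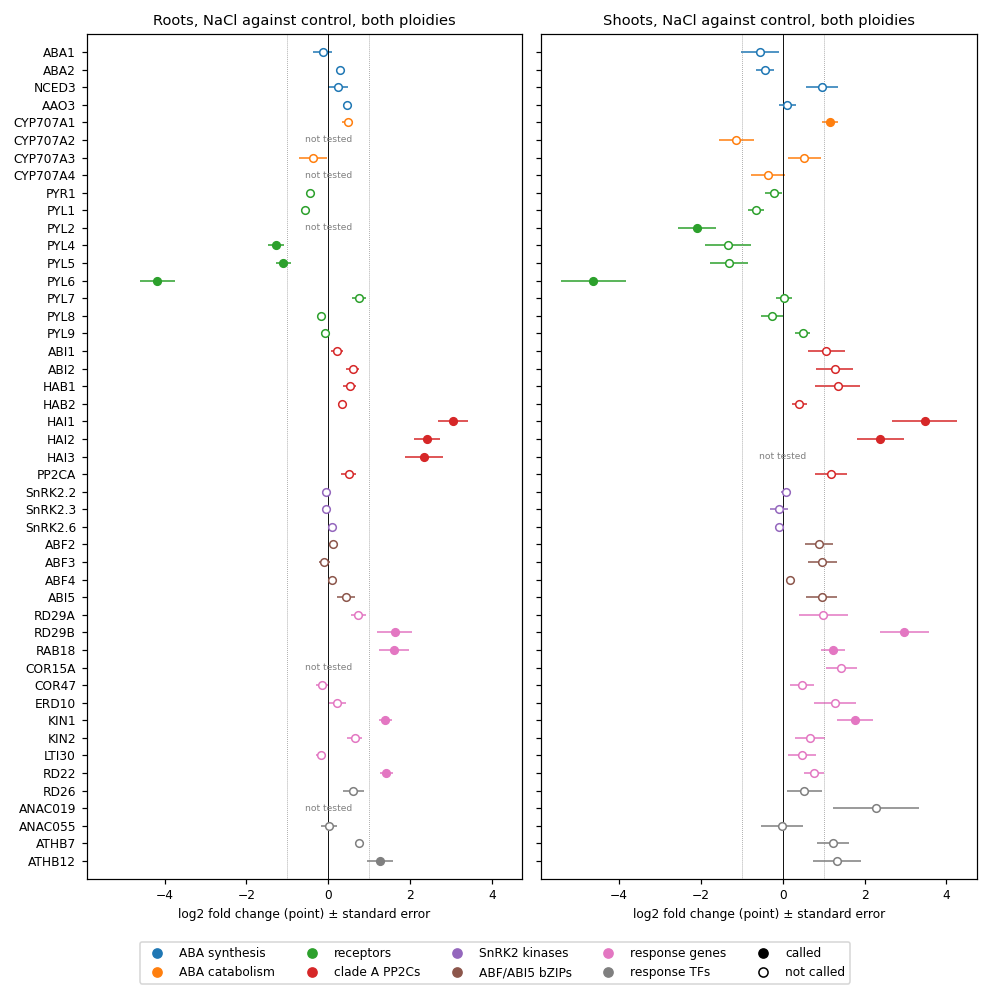
Change with NaCl over both ploidies for each member in roots (left) and shoots (right), as log2 fold change with its standard error (horizontal axis), coloured by role; filled points are called at an adjusted p under 0.05 and 2-fold, dotted lines mark 2-fold. Receptors lie mostly at the left of 0 and PP2Cs at the right in both organs, PYL6 is farthest left (−4.18 and −4.63), HAI1 farthest right (3.04 and 3.47), and the SnRK2 genes sit on 0.

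In shoots the same questions met a larger spread between libraries. Over both ploidies 8 of 46 members tested were called, 6 higher and 2 lower, where 0.568% of the 19174 genes tested were called higher and 0.944% lower. The median member changed by 0.53 and the median gene by 0.01. In shoots, libraries of the same number deviated together from their group means, and with the number as a block the count was 16, 12 higher and 4 lower, where 3.37% of all genes were called. The count fell when libraries were left out. Without all 4 libraries of number 1, 2 or 3 it was 1, 0 and 0, where 125, 30 and 54 of all genes were called. Leaving out single libraries gave between 2 and 9 members, with 6 and 9 without the diploid and the neo-tetraploid NaCl library 1 and 2 to 5 without any of the other 10. PYL6 and CYP707A1 kept their calls in each of these fits. PYL2, HAI1, HAI2, RAB18 and KIN1 lost theirs in most of them. RD29B lost its call without any of the diploid control libraries or of diploid NaCl libraries 2 and 3.

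The receptor PYL6 fell in shoots as it did in roots. It was at 2.23, 1.48 and 1.78 FPKM in diploid controls and at 0.25, 0 and 0 FPKM with NaCl, and at 2.49, 0.25 and 0.81 FPKM in neo-tetraploid controls and 0, 0.08 and 0 FPKM with NaCl. Since the NaCl groups hold 3 and 1 counts, the change is better given by the counts, 110 in the 6 controls and 4 with NaCl, a ratio of 27.5 with an exact 95% interval of 10.4 to 103 for counting error (log2 −4.63 ± 0.79, adjusted p = 0.0183). PYL2 (AT2G26040) was at 2.86, 2.06 and 1.40 FPKM and 1.76, 1.74 and 0.78 FPKM in the controls and 0.97, 0.47 and 0.32 FPKM and 0.32, 0 and 0.47 FPKM with NaCl, with 67 against 16 counts in all (−2.09 ± 0.46, adjusted p = 0.0352). PYL4 and PYL5, which fell in roots, had changes of −1.34 ± 0.56 (adjusted p = 0.162) and −1.31 ± 0.47 (adjusted p = 0.121), and were called with the block (−1.52 and −1.49, adjusted p = 0.0116 and 0.00718). PYL4 in shoots was at 31.1, 20.8 and 22.7 FPKM and 37.4, 9.06 and 9.43 FPKM in the controls and at 21.7, 2.86 and 12.6 FPKM and 11.7, 1.71 and 3.94 FPKM with NaCl, lowest in library 2 of each NaCl group. PYL5 in shoots was at 11.4, 7.18 and 9.15 FPKM and 12.8, 5.49 and 5.82 FPKM in the controls and at 9.97, 1.83 and 5.05 FPKM and 4.52, 0.71 and 1.16 FPKM with NaCl, again lowest in library 2.

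The phosphatase genes HAI1 and HAI2 rose. HAI1 was at 0.86, 3.52 and 0.73 FPKM in diploid control shoots and at 6.82, 69.4 and 21.1 FPKM with NaCl, and at 3.01, 15.8 and 14.5 FPKM in neo-tetraploid controls and 13.9, 141 and 52.3 FPKM with NaCl (3.47 ± 0.79, 11.1-fold, adjusted p = 0.0364). HAI2 was at 1.1, 2.77 and 1.83 FPKM, 2.33, 21.7 and 8.54 FPKM, 1.78, 6.59 and 4.40 FPKM and 8.08, 32.7 and 19.8 FPKM in the same order (2.39 ± 0.57, adjusted p = 0.0428). Within each ploidy every NaCl library of HAI1 with number n exceeded the control of that number. Control and NaCl libraries nevertheless overlapped within the neo-tetraploids for HAI1, within the diploids for HAI2, and across ploidies for both genes. All 7 PP2Cs tested had positive changes, between 0.41 and 3.47. ABI2, HAB1 and PP2CA joined HAI1 and HAI2 with the block (1.03, 1.07 and 1.08, adjusted p = 0.0214, 0.0251 and 0.0049).

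CYP707A1, the ABA hydroxylase gene that is mainly a root transcript, was the only catabolism gene called. It was at 1.61, 2.69 and 1.96 FPKM in diploid controls and 5.51, 4.98 and 4.47 FPKM with NaCl, and at 1.49, 2.13 and 3.19 FPKM in neo-tetraploid controls and 3.93, 4.95 and 5.08 FPKM with NaCl. All 6 NaCl libraries exceeded all 6 controls (1.15 ± 0.20, adjusted p = 0.0183). CYP707A3 was more erratic, at 15.2, 14.3 and 14.2 FPKM and 19.8, 20.8 and 16.6 FPKM in the controls and at 62.4, 10.9 and 25.6 FPKM and 15.9, 6.18 and 31.7 FPKM with NaCl (0.53 ± 0.41). NCED3 was at 11.1, 35.9 and 21.4 FPKM in diploid controls, 28.0, 90 and 36.5 FPKM in diploids on NaCl, 26.2, 62.1 and 38.6 FPKM in neo-tetraploid controls and 50, 96.3 and 62.6 FPKM in neo-tetraploids on NaCl, each NaCl library above the control of its number (0.96 ± 0.40, adjusted p = 0.162, and 0.96 with adjusted p = 0.00249 with the block, just under 2-fold). In diploid shoots alone the block made NCED3 a call (1.2, adjusted p = 0.0138). ABA1 was at 240, 243 and 97.5 FPKM and 208, 185 and 57.8 FPKM in the controls and at 168, 155 and 53.0 FPKM and 124, 144 and 39.8 FPKM with NaCl (−0.56 ± 0.46), lowest in the third library of every group.

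Of the response genes RD29B, RAB18 and KIN1 were called. RD29B was at 2.56, 3.53 and 1.87 FPKM in diploid controls, 9.96, 42.0 and 27.9 FPKM in diploids on NaCl, 2.90, 15.1 and 11.3 FPKM in neo-tetraploid controls and 14, 118 and 43.4 FPKM in neo-tetraploids on NaCl (2.97 ± 0.60, 7.82-fold, adjusted p = 0.0297). RAB18 was at 18, 14.4 and 10.3 FPKM, 20.1, 38.5 and 31.8 FPKM, 16.2, 29.0 and 15.8 FPKM and 33.0, 82.1 and 41.3 FPKM in the same order (1.23 ± 0.30, adjusted p = 0.0445). Its change was 0.94 without neo-tetraploid NaCl library 2, and its call was also lost without most of the other single libraries. KIN1 was at 12.6, 14.5 and 31.3 FPKM, 46.0, 90 and 59.4 FPKM, 17.8, 23.8 and 60.5 FPKM and 50.6, 209 and 82.0 FPKM (1.77 ± 0.44, adjusted p = 0.0466). In diploids the NaCl libraries of all 3 genes lay above the controls, and in neo-tetraploids RD29B and KIN1 overlapped. COR15A was at 181, 139 and 383 FPKM, 345, 704 and 707 FPKM, 236, 247 and 471 FPKM and 435, 1520 and 723 FPKM in the same order (1.43 ± 0.38, adjusted p = 0.0549, and 1.38 with adjusted p = 0.0178 with the block). All 10 response genes had positive changes, between 0.47 and 2.97.

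The NaCl libraries numbered 2 stood apart most in a NAC gene. ANAC019 was at 0.69, 2.53 and 3.09 FPKM in diploid controls, 1.11, 29.0 and 1.84 FPKM in diploids on NaCl, 5.17, 8.47 and 18.6 FPKM in neo-tetraploid controls and 5.92, 127 and 3.93 FPKM in neo-tetraploids on NaCl. In both ploidies only library 2 of the NaCl group stood above the controls, and the change of 2.29 ± 1.05 did not pass (adjusted p = 0.199). ATHB7 was called with the block (1.06, adjusted p = 0.0102, against 1.24 ± 0.39 and adjusted p = 0.086 without it), as was ABI5 (1.01, adjusted p = 0.0437). ABI1 was at 26.3, 37.8 and 40.8 FPKM, 29.3, 135 and 48.6 FPKM, 33.9, 63.6 and 70.7 FPKM and 51.8, 214 and 84.9 FPKM in the order used above (1.07 ± 0.45, adjusted p = 0.167). ABF3 was at 22.1, 29.4 and 15.9 FPKM, 28.6, 70.3 and 43.5 FPKM, 25.9, 53.4 and 36.4 FPKM and 30.5, 106 and 71.6 FPKM (0.97 ± 0.35, adjusted p = 0.118, and 0.88 with adjusted p = 0.0117 with the block), and was called with the block in diploids (1.04, adjusted p = 0.0414). The SnRK2 genes changed by −0.09 to 0.08, as little as in roots.

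Within a single ploidy 0 of 46 members were called by edgeR in diploid shoots, where 0% of all genes were called, and 0 in neo-tetraploid shoots, where 0.0104% were. At an unadjusted p under 0.05 there were 16 and 13 members and 3376 and 2368 of the 19174 genes, and DESeq2 called 4 and 2 members and 242 and 229 genes. With the block 9 members were called in diploids (2.25% of all genes) and 5 in neo-tetraploids (0.954%), of which HAI1, HAI2 and RD29B were called in both, 3 of 9 and 3 of 5. The interaction of ploidy and NaCl in shoots gave 0 of 46 members and 0% of all genes, with no member and 558 of 19174 genes at an unadjusted p under 0.05.

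Of the 4 guard cell genes 2 moved beside the shoot results. GC1 was called lower (−1.23 ± 0.23, adjusted p = 0.0236) and MYB60 fell by 0.78, past the adjusted p, while FAMA and KAT1 did not pass. The summed level of the list was 103 to 164 FPKM in control shoots and 64.0 to 94.7 FPKM with NaCl. Much of it was GC1, at 55.5 to 96.5 FPKM in controls and 17.3 to 54.0 FPKM with NaCl. Of the clock genes LHY changed by −2.93 ± 0.81 (adjusted p = 0.0605) and CCA1 by −1.99 ± 0.92, and both were called with the block. None of the 4 leaf genes passed. The part of these transcripts in the results was not tested.

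**Figure D3:**
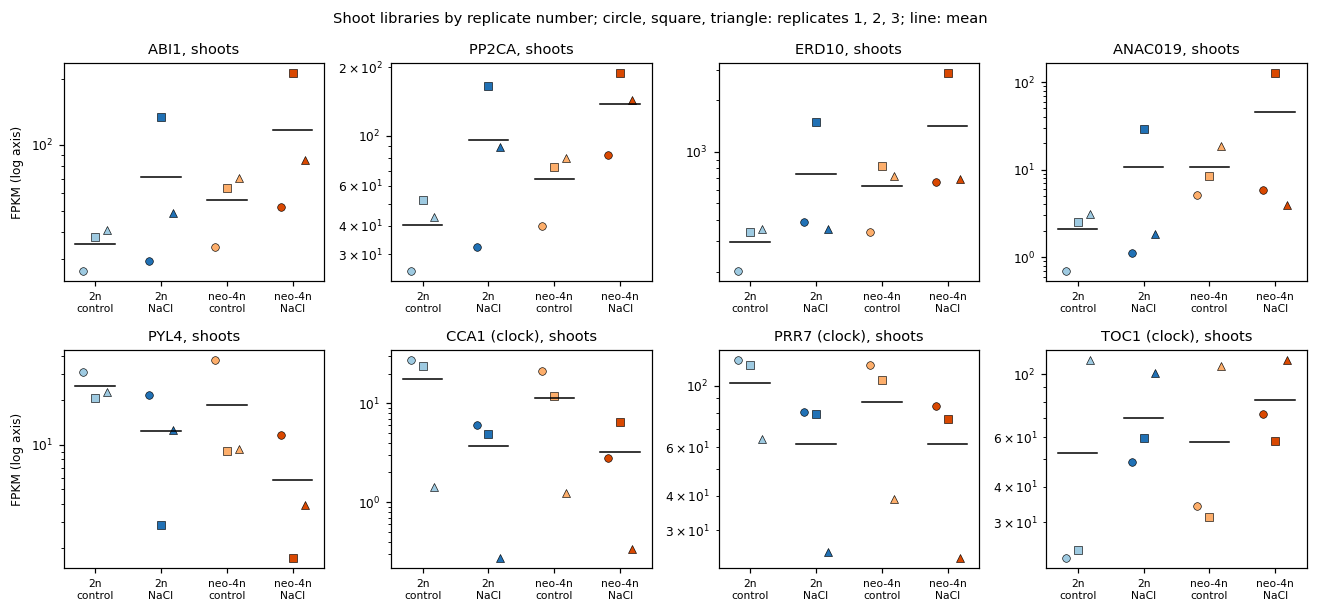
FPKM (log axis) in the 12 shoot libraries of 5 members and 3 clock genes, by group (2n, diploid; neo-4n, neo-tetraploid); circles, squares and triangles are the libraries numbered 1, 2 and 3 and the line is the group mean. ABI1, PP2CA, ERD10 and ANAC019 peak in the NaCl libraries numbered 2, where PYL4 is lowest, while CCA1 and PRR7 are lowest and TOC1 highest in those numbered 3.

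PYL6, HAI1, HAI2, RD29B, RAB18 and KIN1 were called with NaCl in both organs, 6 of the 11 called in roots and of the 8 called in shoots, and each moved in the same direction in both. In shoots the calls of HAI1, HAI2, RAB18 and KIN1 were lost in most fits that lacked 1 library, and that of RD29B in some. The difference between the organs in the NaCl response was tested as well. Of 47 members only PYL2 was called by edgeR (2.28 ± 0.57, adjusted p = 0.0278), where 1.63% of all genes were. DESeq2 called 1 other member and not PYL2. Its counts were 40 in control roots and 47 in NaCl roots, against 67 and 16 in shoots. The call rests on few counts and was lost without diploid control shoot library 1, diploid NaCl root library 2 or neo-tetraploid NaCl root library 2 (adjusted p = 0.0508, 0.0566 and 0.0676).

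**Figure D4:**
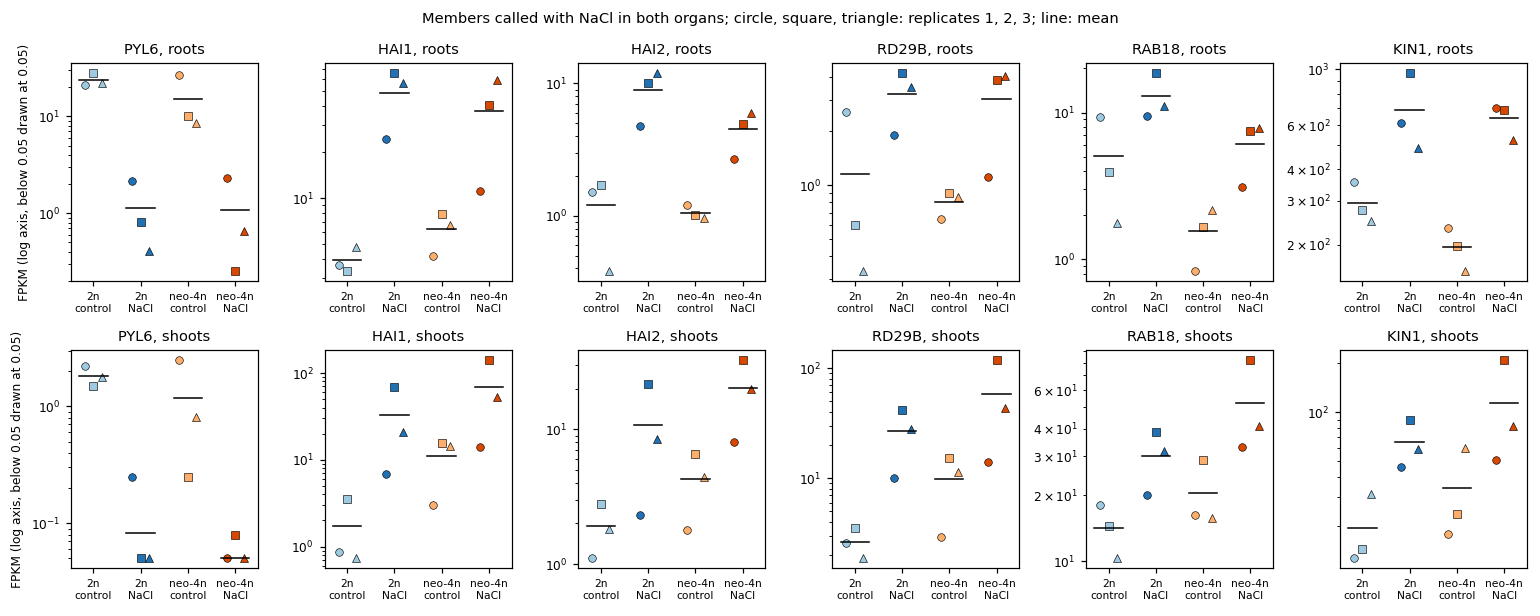
FPKM (log axis, values below 0.05 drawn at 0.05) of the 6 members called with NaCl in both organs, in roots (top) and shoots (bottom), for diploid (2n) and neo-tetraploid (neo-4n) control and NaCl groups; circles, squares and triangles are libraries 1, 2 and 3 and the line is the group mean. PYL6 falls and the other 5 rise with NaCl, with HAI1 reaching 65.8 in roots and 141 in shoots.

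The stretch of 300 bases before the annotated start of each of these 6 genes is printed here because they were called in both organs and the ABFs bind promoters of this pathway. It was read from the RefSeq TAIR10.1 genome and is given 5′ to 3′ on the strand of the gene. Capitals mark the core of the ABA-responsive element, ACGTG, on either strand (CACGT on the other), and the core of the dehydration-responsive element, CCGAC, on either strand (GTCGG on the other).
PYL6, chr2:16846195-16846494, minus strand: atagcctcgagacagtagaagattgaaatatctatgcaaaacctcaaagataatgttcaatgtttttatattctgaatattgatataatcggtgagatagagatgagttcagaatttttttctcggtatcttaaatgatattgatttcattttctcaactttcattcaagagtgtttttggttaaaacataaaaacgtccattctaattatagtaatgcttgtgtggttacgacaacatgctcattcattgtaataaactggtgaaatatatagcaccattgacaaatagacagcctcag
HAI1, chr5:23896940-23897239, minus strand: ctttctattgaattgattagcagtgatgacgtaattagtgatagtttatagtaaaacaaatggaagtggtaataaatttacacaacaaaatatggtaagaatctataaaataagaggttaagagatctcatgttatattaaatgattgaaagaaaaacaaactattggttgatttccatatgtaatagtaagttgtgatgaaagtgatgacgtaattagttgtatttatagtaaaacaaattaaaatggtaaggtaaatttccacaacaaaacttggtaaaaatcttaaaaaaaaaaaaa
HAI2, chr1:2282829-2283128, minus strand: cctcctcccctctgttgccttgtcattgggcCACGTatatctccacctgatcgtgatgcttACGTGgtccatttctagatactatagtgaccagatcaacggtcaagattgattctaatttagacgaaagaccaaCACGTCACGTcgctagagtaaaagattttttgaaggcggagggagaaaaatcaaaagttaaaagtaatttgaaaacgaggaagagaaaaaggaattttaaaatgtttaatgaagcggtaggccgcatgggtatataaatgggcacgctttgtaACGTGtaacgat
RD29B, chr5:21236721-21237020, plus strand: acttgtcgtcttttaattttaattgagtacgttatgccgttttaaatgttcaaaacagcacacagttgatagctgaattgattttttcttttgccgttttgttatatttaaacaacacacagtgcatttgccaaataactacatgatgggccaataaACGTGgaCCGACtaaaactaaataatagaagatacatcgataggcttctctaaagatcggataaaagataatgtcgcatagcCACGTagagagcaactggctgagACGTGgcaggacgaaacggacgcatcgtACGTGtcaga
RAB18, chr5:26519448-26519747, minus strand: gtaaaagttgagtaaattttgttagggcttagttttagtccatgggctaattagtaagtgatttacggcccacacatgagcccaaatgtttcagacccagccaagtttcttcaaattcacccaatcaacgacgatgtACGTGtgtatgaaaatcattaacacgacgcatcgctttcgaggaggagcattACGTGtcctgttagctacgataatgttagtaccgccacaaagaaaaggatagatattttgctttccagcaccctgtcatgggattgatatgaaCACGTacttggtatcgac
KIN1, chr5:5209417-5209716, plus strand: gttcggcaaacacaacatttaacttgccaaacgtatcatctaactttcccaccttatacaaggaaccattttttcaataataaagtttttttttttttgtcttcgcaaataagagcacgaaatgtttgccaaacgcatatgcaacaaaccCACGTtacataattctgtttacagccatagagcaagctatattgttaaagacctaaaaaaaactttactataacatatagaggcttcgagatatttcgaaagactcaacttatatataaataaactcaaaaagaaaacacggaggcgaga

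The ABA-responsive core was found 5 times before HAI2, with the nearest match 8 bases before the start, 4 times before RD29B, 3 times before RAB18 and once before KIN1, and not in these windows of HAI1 and PYL6. The dehydration-responsive core occurred once, before RD29B. The window of RAB18 runs into the neighbouring gene AT5G66410. Of all 27437 windows of protein-coding genes 25.6% held ACGTG at least once, against 25 of 47 members (53.2%), 6 of 8 PP2Cs, 3 of 4 catabolism genes, 3 of 4 bZIP genes, 6 of 10 response genes and 2 of 9 receptors. The longer G-box CACGTG, each copy of which also holds the core, was in 7.09% of all windows and in 8 of 47 members, and CCGAC in 13.9% and in 9 of 47, 4 of them response genes. Of the 9 members called higher with NaCl in either organ 8 held ACGTG, and of the 4 called lower none did. All 4 called lower were receptors, a role in which only 2 of 9 windows held it. A match is a run of letters in this window and not a measured binding site.

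Calls between the ploidies were rare among the members, as they were among all genes. The shares below are too small for an absence of calls to set the members apart. In control roots 0 of 42 members were called by edgeR between neo-tetraploids and diploids, where 0.993% of all genes were, in NaCl roots 0 where 0.124% were, and over both treatments 0 where 0.672% were. At an unadjusted p under 0.05 there were 8, 6 and 8 members and 2953, 3015 and 4489 of the 20239 genes, and DESeq2 called 1, 0 and 1 members and 273, 79 and 160 genes. The median member differed by 0.03 in control roots and by 0 over both treatments, with 23 and 21 of 42 members above 0.

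RD22 came closest. Its levels in roots, given above, were between 2.3 and 3.89 FPKM in the neo-tetraploid controls and between 5.58 and 7.03 FPKM in the diploid controls, and between 7.49 and 10.1 FPKM against 13.9 and 24.1 FPKM with NaCl. Within each treatment the ploidies did not overlap. The difference was −0.94 ± 0.23 in controls (adjusted p = 0.0541), −0.98 ± 0.20 with NaCl (adjusted p = 0.0761) and −0.96 ± 0.15 over both (adjusted p = 0.00455), 1.95-fold lower in neo-tetraploids and so just under the 2-fold limit. It passed that limit on the scale of library totals (−1.03, adjusted p = 0.00504).

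RAB18 was lower in neo-tetraploid control roots by 1.63 ± 0.59 on the log2 scale (adjusted p = 0.202), 0.83 to 2.18 FPKM against 1.76 to 9.39 FPKM. The upper end of the diploids is library 1, and without it the difference was −0.85 (adjusted p = 0.576) in controls and −0.92 (adjusted p = 0.178) over both treatments, against −1.32 ± 0.38 (adjusted p = 0.0637) with it. That library held CRA1 at 31.9 FPKM, and the part of seed transcripts was not tested. Without diploid control library 3 the difference over both treatments was −1.52 and was called (adjusted p = 0.0281), and DESeq2 called RAB18 in controls (−1.64, adjusted p = 0.0495) and over both treatments (−1.31, adjusted p = 0.00739). NCED3 was higher in neo-tetraploid controls, at 7.41 to 11.5 FPKM against 2.80 to 5.50 FPKM in diploids, without overlap (1.07 ± 0.36, adjusted p = 0.174). With the library number as a block it was called (1.09, adjusted p = 0.0029, edgeR). The deviations of all 3 pairs of control libraries with the same number correlated above 0.1. Over all root libraries 16 of 18 such pairs did, so the criterion that all pairs do was not met in roots. With NaCl the ploidies overlapped (0.31 ± 0.35).

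SnRK2.3 was the only member past the adjusted p in control roots. It was at 29.5, 31.6 and 26.5 FPKM in diploids and at 39.1, 41.8 and 36.5 FPKM in neo-tetraploids, again without overlap (0.48 ± 0.10, 1.39-fold, adjusted p = 0.0274). With NaCl it was at 37.1, 36.9 and 31.3 FPKM and 31.5, 33.3 and 34.3 FPKM and the ploidies overlapped (0 ± 0.10). Its interaction of −0.48 ± 0.14 had an adjusted p of 0.666.

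**Figure D5:**
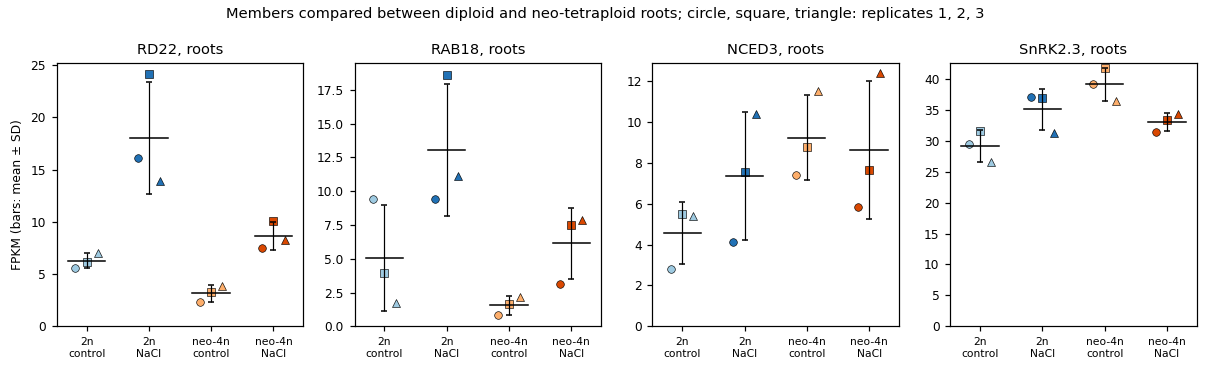
FPKM in the 12 root libraries of RD22, RAB18, NCED3 and SnRK2.3, by ploidy (2n, diploid; neo-4n, neo-tetraploid) and treatment; circles, squares and triangles are libraries 1, 2 and 3, and bars give the mean ± SD of 3 libraries. RD22 is lower in neo-tetraploids in both treatments, NCED3 and SnRK2.3 are higher in neo-tetraploids in the controls and overlap with NaCl, and the high RAB18 value of the diploid controls is library 1.

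In shoots no member was called by edgeR for ploidy in controls, with NaCl or over both treatments, where 0.0104%, 0.0104% and 0.0261% of all genes were called. At an unadjusted p under 0.05 there were 3, 0 and 4 members and 1741, 746 and 1917 of the 19174 genes, and DESeq2 called no member and 64, 12 and 42 genes. Over both treatments 32 of 46 members lay above 0, with a median of 0.52 against 0 for all genes, and the 7 PP2Cs (0.26 to 1.87), the 4 bZIP genes (0.14 to 0.94) and the 5 transcription factor genes (0.53 to 2.19) all did, as did 9 of 10 response genes. Of the receptors 3 of 9 did, with a median of −0.40, and of the synthesis, catabolism and SnRK2 genes 2 of 4, 1 of 4 and 1 of 3. The lowest adjusted p of any member was 0.458 (edgeR). Members can move together in a single library, so these signs are not independent of each other. Neo-tetraploid NaCl library 2 was the highest of the 12 shoot libraries for 30 of 46 members. With the block HAI1 alone was called (1.95, adjusted p = 0.0425, against 1.87 ± 0.76 and adjusted p = 0.469 without it). The ploidy difference did not differ between organs for any member by edgeR, where 0.00469% of all genes were called, with 8 members and 1560 of 21338 genes at an unadjusted p under 0.05.

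Further genes of the pathway, 40 in number and listed by their known roles, give the wider frame. Of these 30 were tested in roots and 27 in shoots. With NaCl over both ploidies 6 were called higher and 2 lower in roots, where 0.963% and 2% of all genes were. In shoots 5 were called higher and none lower, where 0.568% and 0.944% of all genes were. Ploidy over both treatments gave 1 higher (NCED9, 1.08 ± 0.25) and 1 lower (LTP4, listed at 0 in all 3 neo-tetraploid control libraries) in roots and none in shoots by edgeR. The shares of all genes called for ploidy were 0.672% in roots and 0.0261% in shoots. NCED9 and LTP4 were named after their values were seen. In shoots 3 of the 27 had an unadjusted p under 0.05 for ploidy, as had 1917 of all 19174 genes. The 4 with the lowest adjusted p in roots were LTP3, a lipid transfer protein gene, with 2.31 ± 0.25, NCED2, a paralogue of NCED3, with −2.60 ± 0.38, AFP4, which encodes a protein that binds ABI5-type factors, with −1.22 ± 0.20, and LEA4-5, a late embryogenesis abundant protein gene, with 2.12 ± 0.38. Those in shoots were BGLU18, the glucosidase that releases ABA from its glucose ester, with 2.06 ± 0.19 (adjusted p = 0.00196), ABR with 2.42 ± 0.39, LTP3 with 2.05 ± 0.35 and TSPO with 2.91 ± 0.59. LTP3, ABR, LEA4-5 and BGLU18 were called higher in both organs.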

How the data were processed

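RNA from roots and shoots was sequenced as single-end reads of 50 bases on a BGISEQ-500, and the authors used HISAT, Bowtie2 and RSEM with the TAIR10 genome, in versions not given in the sources used here. The deposited tables hold, for each library, expected counts and FPKM that the authors made with RSEM. A gene not listed in a library was taken as 0. Expected counts were rounded and tested with edgeR 4.0.16 (R 4.3.3), with TMM scaling and the quasi-likelihood F test, for genes with at least 10 counts in 3 libraries. Roots and shoots were fitted separately over their 12 libraries, and organs were compared in a fit of all 24. P-values were adjusted by the Benjamini-Hochberg method over all genes tested, and a call also needed a 2-fold change. Standard errors are the log2 fold change divided by the square root of F, intervals on count ratios are exact and cover counting error only, and FPKM are printed as deposited. The depth of 11202503 to 11909554 counts leaves genes of a few counts imprecise.

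The alternatives were DESeq2 1.42.0, limma 3.58.1 on log2 FPKM with a pseudocount of 1 or 0.1, library totals in place of TMM, no filter, no fold limit, organelle genes left out, only the 6 libraries compared, a replicate block and each library left out in turn. In shoots, the deviations of libraries with the same number from their group means correlated in all 18 pairs (0.145 to 0.752), so blocked values are given there beside the others. This pairing comes from the data and not from the labels. The rules for members and lists hold no measured value, but both were chosen with earlier results of these data known. The genes described in full are the called ones and, in each role, those with the highest mean level and the greatest organ difference, and of the other pathway genes the 4 called with the lowest adjusted p per organ. Promoter windows and overlaps came from RefSeq TAIR10.1, in which all 47 identifiers were found.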

Additional observations from a re-analysis of the deposited data

Results flagged for a closer look

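PYL2, a receptor gene, was the only member whose response to NaCl differed between organs by edgeR's test of that difference, at 2.28 ± 0.57 (log2, response in roots minus response in shoots, adjusted p = 0.0278). The change was −2.09 in shoots, and in roots, where the gene was below the limit for testing, the summed counts were 40 in controls and 47 with NaCl. Each library held few reads of PYL2, and in DESeq2 its adjusted p was not given. DESeq2 called 1 member for this difference, which was not PYL2.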

How the results depend on the processing

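For 47 combinations of a member and a comparison, 375 of 399 values under other settings kept direction and side of the limits, 14 lost and 8 gained a call and 2 reversed. They are the calls for NaCl and its organ difference, and the root ploidy comparisons of RD22, RAB18, SnRK2.3 and NCED3. The calls of root against shoot are not among them. Over the fits that lacked 1 library the numbers were 482 of 576, 79, 6 and 9. In roots the count of members called with NaCl over both ploidies rose from 11 to 23 without the fold limit and was 5 without all 4 libraries of number 2, a setting chosen after seeing the data. For ploidy in control roots 0 became 1 without the fold limit (SnRK2.3), with DESeq2 (RAB18) and with the replicate block (NCED3), a different member each time. Over both treatments it became 1 without the fold limit, with DESeq2, with library totals, with limma and a pseudocount of 0.1, with the block, and without all 4 libraries of number 3, and 0 to 1 with single libraries left out. NaCl in neo-tetraploid roots ranged from 3 to 8 in the same way.

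In shoots NaCl over both ploidies gave 3 and 5 members with limma (pseudocount 1 and 0.1), 16 with the block, 2 to 9 with single libraries left out, and 1, 0 and 0 without all 4 libraries of number 1, 2 and 3. NaCl in diploid shoots gave 4 with DESeq2 and 9 with the block, NaCl in neo-tetraploids 2 and 5, and ploidy over both treatments 1 with the block. The organ difference of the NaCl response gave 2 with limma at either pseudocount and with the block, which adds ABF3 (−1.07, adjusted p = 0.0229 in the blocked edgeR fit), and 0 to 2 with single libraries left out. The causes were not tested.

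For ploidy with NaCl in roots, SnRK2.3 went from 0 to 0.01 with DESeq2 and without the filter and lay between −0.05 and 0.03 with single libraries left out, and NCED3 lay between −0.06 and 0.68, with −0.06 without neo-tetraploid NaCl library 3. Among root calls the block changed only these, NCED3 in controls (adjusted p = 0.0029) and RAB18 over both treatments (adjusted p = 0.043, edgeR). In roots 16 of 18 pairs of libraries with the same number correlated above 0.1 and in the fit of both organs 26 of 48, so the criterion that all pairs exceed 0.1 was not met there, although every library correlated best with its own number.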

Other observations

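DREB2A, a drought-response factor that acts outside the ABA branch and is one of 4 DREB-type genes in a list set beside the members, was at 37.6, 37.3 and 39.2 FPKM in diploid control roots and at 90.8, 98.0 and 110 FPKM in neo-tetraploid control roots. The groups did not overlap, and the difference of 1.44 ± 0.20 was called by edgeR (adjusted p = 0.00316). With NaCl the levels were 52.0, 76.7 and 98.1 FPKM in diploid roots and 62.5, 69.8 and 85.3 FPKM in neo-tetraploid roots, with overlap (0.02 ± 0.19, adjusted p = 0.974). The interaction of ploidy and NaCl was −1.43 ± 0.27 (adjusted p = 0.502, and 0.0495 with the replicate block, both edgeR). Of the other 3 genes of the list only CBF3 was tested in roots (−0.90 ± 0.56).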
